A study of Mus musculus with 18 samples.

Results

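The trophectoderm transcription factors examined here are 7 genes, Cdx2, Hand1, Tead4, Gata3, Tfap2c, Cdx1 and Ovol1, matched by symbol and Ensembl identifier in 3 tables of expression levels from mouse embryos. They are 7 of the 8202 genes held in any of the tables, of which 5430 stand in all 3. The table of embryonic day 2.5 (E2.5) holds 6 of the 7 among 7082 genes, and the tables of E3.75 and E4.5 hold all 7, among 6648 and 6545 genes. Cdx1 at E2.5 was not analysed here. The groups were Oct4 -/- (null) and Oct4 +/+ (wild type) embryos of the CD1 strain, an outbred mouse stock, in 6 groups of 3 libraries. By its title the series asked for Oct4-dependent genes in vivo, and Oct4 is the product of the gene Pou5f1. The labels do not say how the null allele was made, so what maternal Oct4 the embryos carried is not known here, and all samples are labelled as whole embryos.

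The trophectoderm is the outer epithelium of the blastocyst and gives rise to the trophoblast of the placenta, while the inner cell mass gives rise to epiblast and primitive endoderm. In mouse embryos, outer cells that are polarised keep Hippo signalling low, the coactivator Yap1 enters the nucleus, and with the DNA-binding factor Tead4 it turns on Cdx2 and Gata3. Oct4 marks the inner cells, and Cdx2 and Oct4 are known to repress each other's genes in mouse embryonic stem cells. Hand1 acts later, in trophoblast giant cells.

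RefSeq promoter sequence (build GRCm38.p6, 250 bases before to 50 after the start site) was held for 2 of the 7 genes, and both are shown because they are the lineage factors for which binding of Oct4 or of AP-2 factors such as Tfap2c can be looked for. Each is printed 5′ to 3′ on the gene's own strand, with motif matches in capitals.
Cdx2: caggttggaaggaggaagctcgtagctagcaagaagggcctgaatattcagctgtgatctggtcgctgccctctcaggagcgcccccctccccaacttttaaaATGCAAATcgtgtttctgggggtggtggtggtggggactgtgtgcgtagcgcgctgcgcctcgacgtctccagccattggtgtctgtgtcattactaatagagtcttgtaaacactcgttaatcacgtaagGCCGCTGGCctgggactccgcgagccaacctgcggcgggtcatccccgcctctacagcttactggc
Gata3: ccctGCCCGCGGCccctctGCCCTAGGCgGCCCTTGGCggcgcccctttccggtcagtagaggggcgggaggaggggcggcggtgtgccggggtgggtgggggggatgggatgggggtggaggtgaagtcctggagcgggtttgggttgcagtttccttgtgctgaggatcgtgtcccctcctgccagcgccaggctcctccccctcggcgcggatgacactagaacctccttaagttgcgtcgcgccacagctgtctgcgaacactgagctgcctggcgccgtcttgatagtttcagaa
The Cdx2 window lies at chr5:147307200-147307499 on the minus strand and has a GC content of 57.3%. It holds 1 octamer, ATGCAAAT, the sequence bound by POU factors such as Oct4, at window positions 104 to 111, where it starts at position -147 from the start site. The octamer was found on either strand of 1.74% of 32851 promoter windows of this length. The Cdx2 window also holds 1 AP-2 motif, GCCNNNGGC, at positions 235 to 243, a motif present in 16.6% of windows. The Gata3 window, at chr2:9878551-9878850 on the minus strand with a GC content of 67.3%, holds 3 AP-2 matches within its first 38 bases and no octamer. The TEAD motif GGAATG, found in 14.7% of windows, the GATA motif AGATAA (11.2%), the CDX motif TTTATG (11.9%), the TATA box TATAAA (13.6%) and the E-box CATCTG (17.2%) were in neither window on either strand. No match says only that these letters are not in these windows, and a match is no evidence of binding. All motifs were searched on both strands, no printed matches overlap each other, and the octamer letters do not overlap the AP-2 letters.

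Levels are read counts scaled to a total of 1000000 over the genes of a table (CPM), and the reads behind them ranged from 364936 in Oct4 null library 1 at E4.5 to 1922432 in Oct4 null library 2 at E2.5. Null libraries were deeper, with median reads of 1917754 (null) and 916720 (wild type) at E2.5, 1375610 and 576078 at the next stage and 1314657 and 543033 at the last. The third library of each group (library C of the wild type embryos at E4.5) was close to a blend of the first 2 of its group, with a fitted weight for each. Its variance around that blend was 0.944 to 1.22 times the counting variance over the 6 groups, against 1.03 to 2.68 times for the other 12 libraries. For those 12 the fit put nearly all weight on the third library alone, so they were in effect not set against a blend. The ranges overlap, and results are given with and without the third library. The design counts 3 embryos for each genotype and stage without saying more on the libraries, so p-values measure only the spread between them, which may be technical. Pou5f1 itself had 931, 1011 and 963 CPM in null and 1809, 2093 and 1723 CPM in wild type embryos at E2.5, and its log2 fold change was -0.95 ± 0.08 (SE) there (adjusted p = 0.00105, limma), -0.96 ± 0.13 at E3.75 (adjusted p = 8.57e-05) and -1.05 ± 0.20 in the last stage (adjusted p = 0.125). The protocol reads mainly the 3′ part of a transcript, and the labels do not give the deleted part of the allele, so Pou5f1 reads outside a deletion would check nothing about the labels.

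Over all 20 combinations of a member and a stage, 3 were called higher in null embryos, Hand1 and Ovol1 at E2.5 and Tead4 at E3.75, and 1 was called lower, Cdx1 at E3.75. Cdx2, Gata3 and Tfap2c passed the test at no stage. Over all genes of a table the share called was 0.593% at E2.5, 8.2% at E3.75 and 0.0% for E4.5. A gene was called at an adjusted p under 0.05 in limma, with the Benjamini-Hochberg adjustment over all genes of the stage, and fold changes are differences of log2(CPM + 1), null minus wild type, which understate the change of low genes. The bulk RNA of whole embryos cannot tell fewer cells of a type from less RNA per cell.

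**Figure D1:**
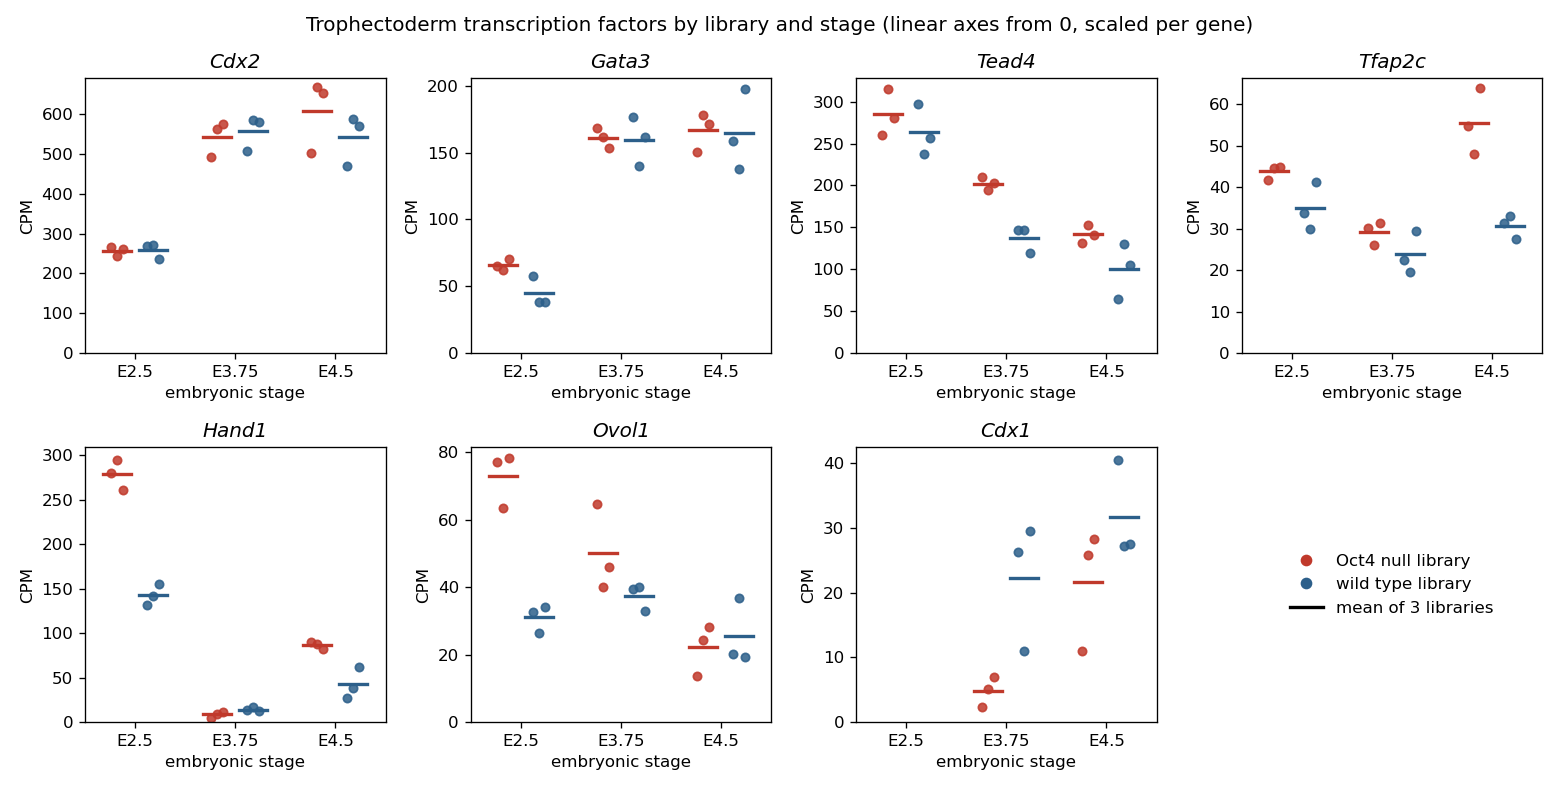
CPM of each factor (linear axis from 0, its own scale per gene) in each library by stage, Oct4 null in red and left, wild type in blue and right, with bars at the mean of 3 libraries. Hand1 and Ovol1 null libraries lie above all wild type libraries at E2.5. Tead4 null libraries do so at E3.75 and, by less than 1 read, at E4.5. Cdx1 null libraries lie below at E3.75.

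Tead4 (ENSMUSG00000030353) encodes the TEAD-family factor that takes Yap1 to DNA and is needed for the mouse trophectoderm. At E2.5 it had 261, 315 and 281 CPM in null and 297, 237 and 257 CPM in wild type embryos, and the groups overlapped. The log2 fold change there was 0.12, with a 95% interval of -0.15 to 0.38 (adjusted p = 0.621). At E3.75 it had 210.4, 194.1 and 202.4 CPM in null and 146.7, 146.9 and 119.8 CPM in wild type embryos. Every null library was above every wild type library, and Tead4 was called higher by 0.56 ± 0.13 on the log2 scale, a 1.47-fold difference with an interval of 1.22 to 1.77 (adjusted p = 0.00931). At E4.5 the null libraries had 131.5, 152.9 and 140.7 CPM and the wild type libraries 64.5, 129.9 and 105.7 CPM. The groups did not overlap there either, but the log2 fold change of 0.55, with an interval of 0.06 to 1.05, did not pass (adjusted p = 0.284). Without the third libraries, the E3.75 difference was 0.46 (adjusted p = 0.259), and with reads thinned to the shallowest library of the stage it was 0.43 (adjusted p = 0.106). The call was also lost without wild type library 3 (adjusted p = 0.0712), without null library 1 (0.0516) and in a fit over all 18 libraries (0.0670).

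Cdx2 (ENSMUSG00000029646) encodes the caudal-type homeodomain factor that the mouse trophectoderm needs to keep its identity. It had 265, 244 and 262 CPM in null and 269, 272 and 236 CPM in wild type embryos at E2.5. At E3.75 the values were 492, 563 and 575 CPM in null and 508, 586 and 579.8 CPM in wild type embryos. At E4.5 they were 501, 668 and 654 CPM in null and 469.6, 587 and 569 CPM in wild type embryos. The groups overlapped at every stage. The log2 fold changes were -0.01 at E2.5 (interval -0.24 to 0.23, adjusted p = 0.974), -0.04 at E3.75 (-0.23 to 0.15, adjusted p = 0.850) and 0.16 in the last stage (-0.13 to 0.45, adjusted p = 0.578), and the sign of the first 2 turned under other scalings. As linear folds these intervals reach from 0.845 to 1.17 at E2.5, then 0.852 to 1.11 and 0.912 to 1.37 at the later stages.

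Gata3 (ENSMUSG00000015619) encodes a zinc finger factor that acts beside Cdx2 downstream of Tead4 in mouse embryos. At E2.5 it had 65.3, 61.9 and 70.4 CPM in null and 57.8, 38.0 and 38.1 CPM in wild type embryos. All 3 null libraries were above the wild type libraries, and the log2 fold change of 0.58, with an interval of 0.11 to 1.04, did not pass (adjusted p = 0.159). Without wild type library 1, the highest of its group, it was 0.77 and passed (adjusted p = 0.0281). That was the 1 of 17 alternatives in which Gata3 passed at E2.5, and it called 390 of 7082 genes, against 42 with all libraries. Without the third libraries Gata3 was at 0.43 (adjusted p = 0.812). The E3.75 libraries had 168.8, 161.4 and 153.7 CPM in null and 176.8, 140.1 and 161.4 CPM in wild type embryos, and those of E4.5 150.7, 178.0 and 171.3 CPM in null and 158.4, 137.7 and 197.6 CPM in wild type embryos. The genotypes overlapped at both stages, at log2 fold changes of 0.02 (interval -0.25 to 0.29) and 0.03 (-0.32 to 0.38).

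Tfap2c (ENSMUSG00000028640) encodes AP-2 gamma, which acts in trophoblast and in the expression of Cdx2 in mouse embryos. It had 41.9, 44.7 and 44.8 CPM in null and 33.8, 30.0 and 41.3 CPM in wild type embryos at E2.5. The null libraries were all higher, by 0.33 on the log2 scale with an interval of -0.14 to 0.79 (adjusted p = 0.409). At E3.75 the values were 30.1, 26.2 and 31.3 CPM in null and 22.6, 19.5 and 29.5 CPM in wild type embryos, which overlapped (0.29, interval -0.25 to 0.84). At E4.5 they were 54.8, 47.9 and 64.0 CPM in null and 31.3, 33.0 and 27.6 CPM in wild type embryos. These groups were well apart, with a log2 fold change of 0.83 and an interval of 0.36 to 1.31, yet the adjusted p was 0.169. In a fit over all 18 libraries, which shares the spread between stages, the same difference had an adjusted p of 0.0384. That was the 1 of 15 alternatives in which Tfap2c passed at E4.5. The same fit called 221 genes at E4.5, where the fit of E4.5 alone called 0. Without the third libraries Tfap2c was at 0.66 (adjusted p = 0.832).

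Hand1 (ENSMUSG00000037335) encodes a basic helix-loop-helix factor that drives the differentiation of trophoblast giant cells in the mouse. At E2.5 it had 280.5, 294.4 and 260.7 CPM in null and 132.0, 141.7 and 154.8 CPM in wild type embryos. The groups were far apart, and Hand1 was called higher by 0.96 ± 0.12 on the log2 scale, a 1.95-fold difference with an interval of 1.63 to 2.32 (adjusted p = 0.0101). At E3.75 few reads were left, 4, 13 and 17 in null and 7, 20 and 7 in wild type embryos, or 4.62, 9.45 and 11.8 CPM and 13.2, 17.0 and 12.2 CPM. The null libraries were all lower there, by 0.72 on the log2 scale, but the interval of -1.60 to 0.16 covers 0 (adjusted p = 0.328). The nearest libraries, 11.8 CPM in null and 12.2 CPM in wild type, were less than 1 read apart. Hand1 was listed at E3.75 through its wild type libraries, so its direction there is no support. At E4.5 the values were 90.4, 88.2 and 82.6 CPM in null and 27.6, 38.8 and 62.5 CPM in wild type embryos. The null libraries were again all higher, with a log2 fold change of 1.08 and an interval of 0.50 to 1.66, but an adjusted p of 0.146, and of 0.0241 in the fit over all 18 libraries. That fit, which called 221 genes at E4.5, was the 1 of 16 alternatives in which Hand1 passed there. The E2.5 call was lost without null library 1, 2 or 3 (adjusted p = 0.0988, 0.121 and 0.0884), without the third library of each group (1.07, adjusted p = 0.157) and in the fit over all 18 libraries (0.0505).

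Ovol1 (ENSMUSG00000024922) encodes a zinc finger repressor known in epithelia and in trophoblast differentiation. At E2.5 it had 77.1, 63.5 and 78.2 CPM in null and 32.7, 26.5 and 34.0 CPM in wild type embryos. Again the groups were far apart, and Ovol1 was called higher by 1.21 ± 0.20 on the log2 scale, a 2.31-fold difference with an interval of 1.70 to 3.13 (adjusted p = 0.0264). At E3.75 it had 64.7, 40.0 and 45.9 CPM in null and 39.5, 39.9 and 33.0 CPM in wild type embryos. The null libraries were above by a narrow margin, at 0.39 with an interval of -0.07 to 0.85 (adjusted p = 0.306). At E4.5 it had 13.7, 24.3 and 28.3 CPM in null and 20.3, 36.8 and 19.3 CPM in wild type embryos, with overlap and a log2 fold change of -0.19 (interval -0.98 to 0.59). The E2.5 call was lost without the third library of each group (1.22, adjusted p = 0.604), without null library 1, 2 or 3 (adjusted p = 0.209, 0.121 and 0.254) and without wild type library 3 (0.0893).

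Cdx1 (ENSMUSG00000024619) encodes a caudal-type homeodomain factor known for patterning the later embryo along its axis. At E3.75 it had 2, 7 and 10 reads in null and 14, 13 and 17 reads in wild type embryos, or 2.31, 5.09 and 6.96 CPM and 26.3, 11.04 and 29.5 CPM. It was called lower in null, with a log2 fold change of -1.99 ± 0.47, a fold of 0.252 with an interval of 0.128 to 0.497 (adjusted p = 0.0112). A gene is in the table only where it reached about 10.4 CPM in 3 of the 6 libraries, and Cdx1 did so through wild type libraries alone, so that it had to differ to be listed. At E4.5 the values were 10.96, 25.9 and 28.3 CPM in null and 40.5, 27.1 and 27.6 CPM in wild type embryos, which overlapped, with a log2 fold change of -0.61 (interval -1.41 to 0.19, adjusted p = 0.435). The E3.75 call was lost without wild type library 3 (adjusted p = 0.0895), without null library 1 (0.0597), without the third libraries (0.0946) and with thinned reads (0.125).

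**Figure D2:**
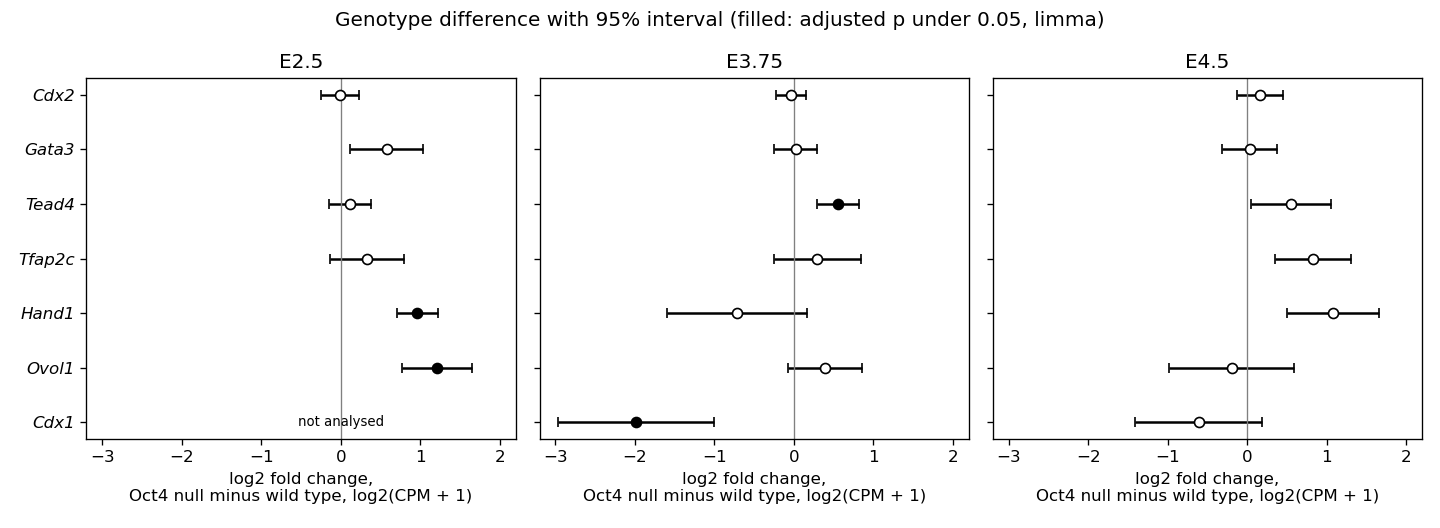
Log2 fold change of each factor at each stage, Oct4 null minus wild type on log2(CPM + 1), with its 95% interval from limma; filled points have an adjusted p under 0.05. Cdx2 sits at 0 with short intervals at E2.5 and E3.75, and Hand1 lies right of 0 at E2.5 and E4.5 and left of it at E3.75.

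Read against all genes, the 6 factors at E2.5 had 2 called higher and none lower, where 0.409% of the 7082 genes were called higher and 0.184% lower (0.593% in all). Their null libraries were all above the wild type libraries for 4 of 6 and all below for none, where the shares over all genes were 13.6% and 14.1%. Of those 4, Tfap2c was above by less than 1 read (41.9 CPM in null library 1, 41.3 CPM in wild type library 3). The median log2 fold change of the 6 was 0.45, against -0.02 over all genes. At E3.75, 1 of 7 was called higher and 1 lower, where 3.6% and 4.6% of 6648 genes were (8.2% in either direction), and 2 of 7 were all above and 2 all below, against 11.4% and 15.7%. The lower one, also counted among the 2 all below, is Cdx1, which was listed at E3.75 through its wild type libraries alone, so it is no support for a direction. The other of those 2 is Hand1, which was below by less than 1 read (11.8 CPM in null library 3, 12.2 CPM in wild type library 3). It reached 10 CPM at E3.75 in 1 null and 3 wild type libraries. Hand1 was thus listed there through its wild type libraries and is no support for a direction either. Of the 2 all above, Ovol1 was so by less than 1 read (39.98 CPM in null library 2, 39.90 CPM in wild type library 2). The median of the 7 was 0.02, and -0.04 over all genes. At E4.5 limma called none of the 6545 genes (0.0%) at the adjusted threshold, 985 had an unadjusted p under 0.05, including 3 of the 7 factors, and edgeR called 42 genes (0.642%) and DESeq2 112 (4.29% of the 2611 genes to which it gave an adjusted p). There, 3 of 7 factors were all above and none all below, where 12.2% and 9.99% of genes were, and the median was 0.16, against 0.06 over all genes. Of those 3, Tead4 was above by less than 1 read (131.5 CPM in null library 1, 129.9 CPM in wild type library B).

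Without the third library of each group, 1 gene of the whole E2.5 table was called (0.0141%) and no member, and at E3.75 155 genes (2.33%) and no member. With the count test of edgeR on the recovered reads, which called 2.53% of genes at E2.5 and 8.3% at E3.75, Hand1 (adjusted p = 0.00296) and Ovol1 (0.0133) at E2.5 and Tead4 (0.00278) and Cdx1 (0.00575) at E3.75 were all called. Cdx1 was listed at E3.75 through its wild type libraries alone, so its call in either test is no support for a direction.

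**Figure D3:**
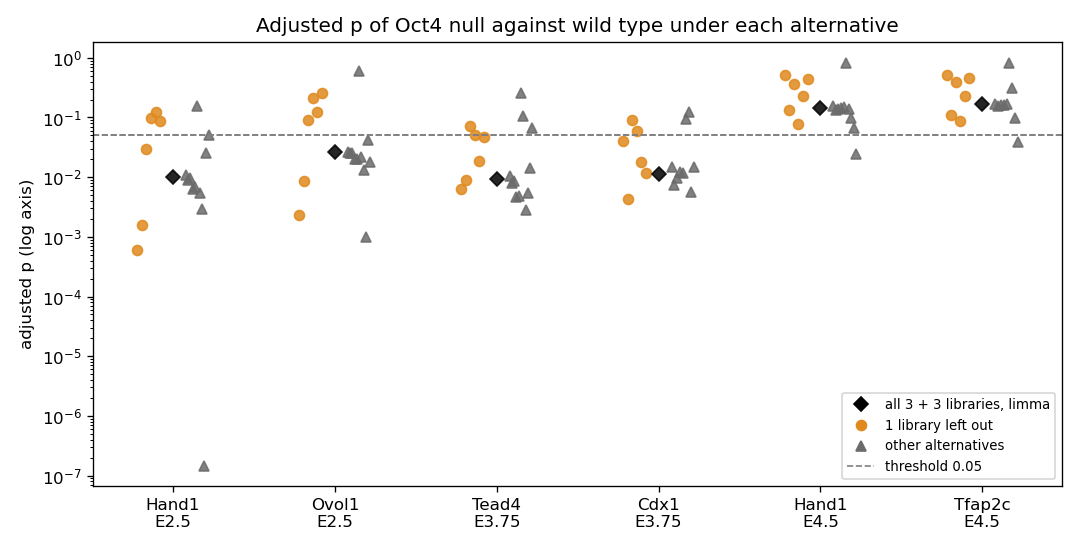
Adjusted p (log axis) of Oct4 null against wild type for the 4 calls and for Hand1 and Tfap2c at E4.5, with all libraries (black diamonds), with 1 library left out (orange circles) and under the other alternatives (grey triangles); the dashed line marks 0.05. Each of the 4 calls has alternatives on both sides of the line.

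Whether the genotype difference itself changed between stages was tested over the 6 factors of all 3 tables, in a fit of 18 libraries and 5430 genes in which the comparisons share libraries. Hand1 was the only factor called. Its genotype difference was 1.68 lower on the log2 scale at E3.75 than at E2.5 (-1.68 ± 0.38, interval -2.45 to -0.90, adjusted p = 0.0394), where 1.12% of genes were called in either direction. The fit shares 1 spread per gene over the stages, and this SE was below the 0.43 of Hand1 in the fit of E3.75 alone. The Hand1 difference was higher at E4.5 than at E3.75 by 1.80 ± 0.38, which did not pass (adjusted p = 0.0555; 0.0921% of genes called), and at E4.5 minus E2.5 it was 0.12 (interval -0.66 to 0.90; 1.01% of genes called). At E3.75 Hand1 was listed through its wild type libraries, so its direction there is no support. The first of these differences rests on the few Hand1 reads of E3.75, and without the third libraries it was -2.12 (adjusted p = 0.382). It no longer passed when any 1 of 9 libraries was left out, with an adjusted p of 0.0558 to 0.117. These were null libraries 1, 2 and 3 and wild type libraries 1 and 3 of E2.5, null library 1 and wild type libraries 1 and 3 of E3.75, and null library 3 of E4.5. For Ovol1 the genotype difference was 0.82 lower at E3.75 than at E2.5, at -0.82 ± 0.40 (adjusted p = 0.358), and at E4.5 minus E2.5 it was -1.40 ± 0.40 (adjusted p = 0.0715), and neither passed. For Gata3 it was -0.56 at E3.75 minus E2.5 (adjusted p = 0.286) and -0.55 at E4.5 minus E2.5 (adjusted p = 0.232). Cdx2 gave -0.03 (interval -0.37 to 0.31) and 0.17 (interval -0.17 to 0.50) over the same stages. For Cdx1 a fit of E3.75 and E4.5 alone, added after seeing the data, gave 1.38 ± 0.62 (adjusted p = 0.309, 5882 genes).

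The factors differed in how their levels lay across stages, given as a description because each table was scaled on its own. Scaling over the genes of all 3 tables multiplied levels by 1.03 to 1.04. Cdx2 had mean levels, in stage order, of 257, 543 and 608 CPM in null and 259, 558 and 542 CPM in wild type embryos. The 4 later groups overlapped in their order and stood apart from both E2.5 groups, which overlapped with each other. Gata3 was likewise lowest at E2.5, at 65.9, 161 and 167 CPM in null and 44.6, 159 and 165 CPM in wild type embryos, with the later 4 groups overlapping and the E2.5 groups apart.

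Tead4 ran the other way, with 285, 202 and 142 CPM in null and 264, 138 and 100.01 CPM in wild type embryos. E3.75 null stood apart from both neighbours in the order, and E4.5 null, E3.75 wild type and E4.5 wild type overlapped in turn. Hand1 was highest at E2.5 and lowest at E3.75 in both genotypes, with means of 279, 8.63 and 87.1 CPM in null and 143, 14.1 and 43.0 CPM in wild type embryos, and no neighbouring groups overlapped. The E3.75 groups were apart by less than 1 read. The E3.75 mean was 0.0310 times that of E2.5 in null and 0.0987 times in wild type embryos.

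Tfap2c was lowest at E3.75, at means of 43.8, 29.2 and 55.6 CPM in null and 35.04, 23.9 and 30.6 CPM in wild type embryos. E4.5 null and E2.5 null stood apart at the top, and the other 4 groups overlapped in turn. Ovol1 means were 72.9, 50.2 and 22.1 CPM in null and 31.1, 37.5 and 25.5 CPM in wild type embryos, so that its order by stage was steeper in null, where the E4.5 mean was 0.303 times that of E2.5, against 0.819 times in wild type embryos. Cdx1 had means of 4.79 CPM at E3.75 and 21.7 CPM at E4.5 in null and 22.3 and 31.7 CPM in wild type embryos. E3.75 null stood apart from the rest, which overlapped.

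Genes whose pattern over the 18 libraries was most like that of each factor were sought among 5331 genes of all 3 tables, by the root mean square difference (RMS) of log2(CPM + 1) after subtraction of each gene's mean. The nearest to Cdx2 were Rrnad1, Sdc4 and Mars, at an RMS of 0.131 to 0.143, where the median over all genes was 0.766. Sdc4, a transmembrane heparan sulphate proteoglycan, had means of 202, 450.5 and 512 CPM over the stages in null and 204, 444 and 422 CPM in wild type embryos. The nearest to Tead4 were Stam2, Lig3 and Abcb6 (RMS 0.153 to 0.191), and those to Gata3 were Smim20, Bckdk and Actr3 (0.233 to 0.266). Lig3, a DNA ligase, had means of 173, 152 and 93.1 CPM in null and 190.02, 102 and 63.9 CPM in wild type embryos. Tfap2c was most like Incenp, Arhgap8 and Pip4k2c (0.214 to 0.259). Incenp, a subunit of the chromosomal passenger complex, had 104, 70.9 and 136 CPM in null and 98.8, 59.5 and 91.4 CPM in wild type embryos. Ovol1 was most like Gsk3b, Pheta1 and Dppa2 (0.269 to 0.347). Gsk3b, a kinase of the Wnt pathway, had 61.3, 50.2 and 23.6 CPM in null and 26.1, 35.2 and 19.7 CPM in wild type embryos. Hand1 had no near match, with Nme4, Elac2 and Kat2a at an RMS of 0.689 to 0.872 against a median of 1.78. Elac2, a tRNA-processing nuclease, came closest in its genotypes, at 129.6, 9.65 and 36.6 CPM in null and 69.1, 15.2 and 20.9 CPM in wild type embryos.

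Paralogs of the 7 factors gave no calls, where 0.593%, 8.2% and 0.0% of all genes were called in stage order. With so few of them measured, the lack of calls is not particular to the paralogs. Of 15 paralogs listed, 4, 7 and 8 were measured at the 3 stages in turn, and their median log2 fold changes were 0.43, -0.14 and -0.0001. Of the Hippo pathway and polarity genes that act upstream of Tead4, 16, 17 and 11 of 24 listed were measured, with medians of 0.20, 0.09 and -0.21. The sole gene called was Ezr, a linker of membrane and cortical actin at the apical surface, which was lower in null at E3.75, at 46.5 ± 12.9 CPM in null and 80.3 ± 14.6 CPM in wild type embryos (SD, n = 3 each; log2 fold change -0.79 ± 0.21 SE, adjusted p = 0.0206).

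Other regulators of trophoblast gave no calls among 14 measured genes at E2.5 and 17 at E4.5, where 0.593% and 0.0% of all genes were called. Their medians at those stages were 0.07 and -0.30, against -0.02 and 0.06 over all genes. At E4.5 the null libraries were all below for 3 of the 17 and all above for none, against 9.99% and 12.2% of all genes. At E3.75, 4 of 16 were called lower in null and none higher, and the median was -0.13. Over all genes 4.6% were called lower and 3.6% higher there. Of those 4, Bmp4 and Esrrb also stand in the epiblast list, so they are counted in both. Bmp4, a ligand of the inner cells, had 21.5 ± 2.4 CPM in null and 41.1 ± 5.5 CPM in wild type embryos (SD, n = 3 each; adjusted p = 0.0256). Id1, an inhibitor of helix-loop-helix factors and a target of BMP signalling, fell by 1.06 (adjusted p = 0.0293), Esrrb, an orphan nuclear receptor of epiblast and trophoblast stem cells, by 0.62 (0.0443) and Elf3, an epithelial ETS factor, by 0.32 (0.0450). The direction of these 4 was opposite to that of Tead4 at the same stage, and that difference was not tested.

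Epithelial and effector genes of the trophectoderm had a median of -0.07 at E2.5, with 1 of 30 called, Cldn6, a claudin of tight junctions, which was lower in null (158 ± 21 against 285 ± 30 CPM, SD, n = 3 each; adjusted p = 0.0237). Over all genes 0.593% were called at E2.5. At E3.75, 3 of 34 were called higher and 9 lower, where 3.6% and 4.6% of all genes were, with a median of -0.08. Dab2, an endocytic adaptor, was higher at 986 ± 53 CPM in null and 629.5 ± 42 CPM in wild type embryos (adjusted p = 3.16e-05), as was Cldn7, a claudin, by 0.33 on the log2 scale (adjusted p = 0.00248). Lgals4, a galectin, was lower at 244 ± 7 CPM in null and 421 ± 15 CPM in wild type embryos (adjusted p = 3.16e-05), and so was Tspan8, a tetraspanin, by 0.42. At E4.5 none of 37 passed, where 0.0% of all 6545 genes did, with a median of -0.12.

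**Figure D4:**
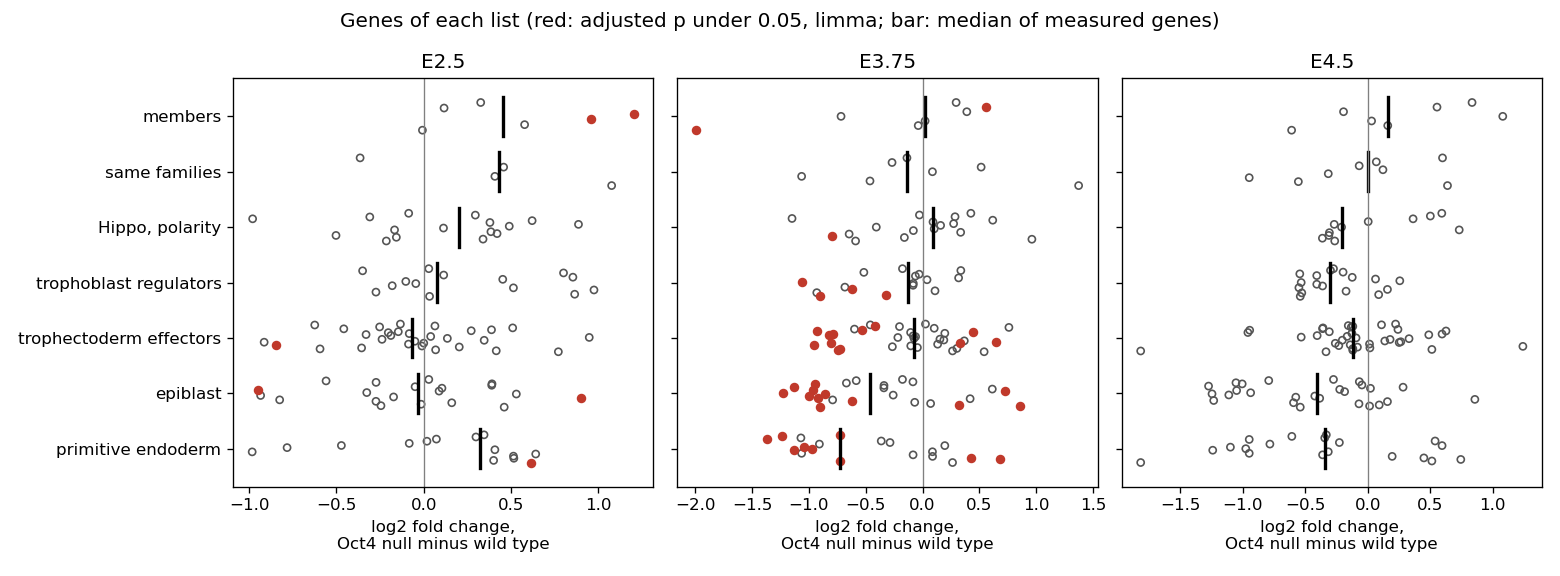
Log2 fold change, Oct4 null minus wild type, of every measured gene of each list by stage, red where the adjusted p is under 0.05 in limma, with a bar at the list's median. At E3.75 the 4 red trophoblast regulators and most red effector, epiblast and primitive endoderm genes lie left of 0, while the factors themselves have 1 red point on each side.

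Summed levels of some markers of other cells lay apart between the genotypes, and their part in the results was not tested. At E2.5, 14 of 30 primitive endoderm genes were measured, and their summed levels were 2296 to 2728 CPM in null and 1852 to 1922 CPM in wild type embryos. Of the 14, Cited1, a transcriptional coactivator, was the one called, at 1551 CPM in null and 1009 CPM in wild type embryos on average, and without it the sums overlapped, at 931 to 961 CPM in null and 847 to 932 CPM in wild type embryos. The sums of 20 of 33 epiblast genes were 4668 to 4805 CPM in null and 5451 to 5608 CPM in wild type embryos. That list includes Pou5f1, and without it the sums overlapped, at 3737 to 3841 CPM in null and 3487 to 3799 CPM in wild type embryos. The median log2 fold change of the 20 was -0.03, with 9 above 0 and 1 called in each direction, the lower one being Pou5f1. Over all genes of E2.5 0.409% were called higher and 0.184% lower. At E3.75 the sums were 1789 to 1830.0 CPM in null and 1828 to 1950.0 CPM in wild type embryos for 19 primitive endoderm genes, and 3979 to 4104 CPM in null and 3995 to 4469.9 CPM in wild type embryos for 24 epiblast genes. Cited1 was higher in null at E3.75 too. Without it the primitive endoderm sums lay apart, at 1339 to 1455 CPM in null and 1563 to 1736 CPM in wild type. Without Pou5f1 the epiblast sums still overlapped, at 3758 to 3819 CPM in null and 3615 to 3870 CPM in wild type. Of those 19 primitive endoderm genes 7 were called lower in null and 2 higher, with a median log2 fold change of -0.73. Of those 24 epiblast genes 9 were called lower and 3 higher, with a median of -0.46. Over all genes of E3.75 4.6% were called lower and 3.6% higher. For 4 measured of 20 genes of maternal somatic cells the E3.75 sums were 223 to 502 CPM in null and 141 to 211 CPM in wild type embryos. They rest on globins, with Hba-a1 at 62.8 ± 28.4 CPM in null and 24.0 ± 4.3 CPM in wild type embryos (SD, n = 3 each; adjusted p = 0.00520), while Ptprc, Col1a1 and Krt5 were not analysed here. At E2.5 the 3 measured genes of that list summed to 1076 to 1330.5 CPM in null and 1024 to 1437 CPM in wild type embryos, and overlapped. At E4.5, 26 epiblast genes summed to 2399.9 to 2617 CPM in null and 3244 to 3398 CPM in wild type embryos, and without Pou5f1 to 2305 to 2474 CPM in null and 3009 to 3123 CPM in wild type embryos, with a median log2 fold change of -0.40 and none called. The E4.5 sums of 19 primitive endoderm genes overlapped, at 2362 to 2771 CPM in null and 2530.2 to 2623 CPM in wild type embryos. Their median log2 fold change was -0.34, against 0.06 over all genes, with 6 of the 19 above 0 and none called. The null libraries were all below for 8 of them and all above for 2, where 9.99% and 12.2% of all genes were. The 4 maternal somatic genes then summed to 158 to 1099 CPM in null embryos, the highest in null library 1, and to 155 to 275 CPM in wild type embryos. Of oocyte and cleavage-stage transcripts 5 of 23 were measured at E2.5 and at E3.75, none passing at E2.5 and 1 higher and 2 lower at E3.75. Their sums lay apart at E2.5, at 1841 to 1946 CPM in null and 2100 to 2279 CPM in wild type embryos. They did so at E3.75 too, at 3324 to 3450 CPM in null and 3462 to 3925 CPM in wild type embryos. At E4.5 the sums of 4 overlapped, at 1693 to 1736 CPM in null and 1713 to 1825 CPM in wild type embryos. Trophoblast giant cell and placental genes, which mark the cells in which Hand1 acts later, were measured for 1, 0 and 1 of 21 listed in stage order, and none was called.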

How the data were processed

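Levels were deposited by the authors as CPM, with a table for each stage whose columns each sum to 1000000. The tool edgeR and the build mm9 are named by the submitters' processing notes. Polyadenylated RNA was primed with oligo(dT) and read near 3′ ends, per the labels' protocols. Aligner, counting tool, annotation and use of strand were not stated in the labels or headers, so reads of overlapping transcripts cannot be told apart. Each listed gene reaches at least 10.3 CPM in 3 of 6 libraries. At E4.5 all wild type columns bear 1 name, and are called A, B and C.

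Null and wild type were compared per stage on log2(CPM + 1) by limma 3.58.1 in R 4.3.3, with a variance trend, two-sided, with Benjamini-Hochberg adjustment over all genes. Differences between stages were contrasts over 18 libraries. All 121650 values were whole multiples of 1 read (100%, within 0.01 reads), and these reads were tested with edgeR (version 4.0.16) and with DESeq2 (version 1.42.0). Same-numbered null and wild type libraries deviated with correlations of -0.003 to 0.121 at E2.5 and -0.031 to 0.010 at E3.75, so numbers were not taken as pairs. Alternatives were other pseudocounts (0.1, 5), a mean minimum of 10 CPM, TMM and DESeq2 size factors, each library left out, the third libraries left out, thinned reads, the count tests, a replicate block and a fit of all 18 libraries. The fits were tested on simulated data. Intervals cover spread between libraries, and amplified reads without molecular identifiers are not independent molecules.

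The members and the gene lists were chosen with earlier results of these data known. Named genes are the 7 members, Pou5f1, up to 4 passing genes per list and stage by smallest p, and the 3 genes most like each member in all 3 tables (mean of at least 10 CPM at each stage). Symbols were matched by identifier for 6968, 6546 and 6443 genes of the 3 tables.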

Additional observations from a re-analysis of the deposited data

Results flagged for a closer look

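The genotype difference of Hand1 differed between E3.75 and E2.5, at -1.68 ± 0.38 on the log2 scale (SE, adjusted p = 0.0394, limma contrast over 18 libraries). The null libraries were all below the wild type libraries at E3.75, at 4.62 to 11.8 CPM against 12.2 to 17.0 CPM, and all above at E2.5, at 261 to 294 CPM against 132 to 155 CPM. The nearest E3.75 libraries of the genotypes were less than 1 read apart. Hand1 was listed at E3.75 through its wild type libraries, so its direction there is no support. At E3.75 these levels rest on 4, 13 and 17 reads in null and 7, 20 and 7 reads in wild type embryos, and the part of these low counts in the difference was not tested. The Hand1 difference in the fit of E3.75 alone had a larger SE, 0.43.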

How the results depend on the processing

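Counts of called genes moved more than the members' fold changes. At E2.5 (42 genes) they were 99 with TMM factors, 93 with DESeq2 size factors, 74 with thinned reads, 179 with edgeR, 238 with DESeq2, 139 in the fit of all 18 libraries, 1 without the third libraries and 1 to 773 with each library left out (1 for each null library, 9 for wild type 3, 390 for wild type 1 and 773 for wild type 2). At E3.75 (545) they were 363, 307 and 213 with thinned reads, DESeq2 and all 18 libraries, 155 without the third libraries and 209 to 652 with each left out, the lowest without wild type library 3, 221 without null 1 and 287 without null 3. For E4.5 (0) the counts were 1 with a pseudocount of 5, 2 with TMM factors, 13 with thinned reads, 42 with edgeR, 112 with DESeq2, 221 with all 18 libraries and 0 to 120 with each left out (120 without null library 1, the shallowest).

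For E3.75 minus E2.5 (61) the counts were 26 with a pseudocount of 0.1, 13 thinned, 115 with edgeR, 147 with DESeq2, 0 without the third libraries and 5 to 131 with each left out. For E4.5 minus E3.75 (5) they were 10 with a pseudocount of 5, 8 with DESeq2 size factors, 11 thinned, 9 with edgeR, 64 with DESeq2, 12 on the genes of those tables alone (added after seeing the data), 0 without the third libraries and 0 to 34 with each left out. For E4.5 minus E2.5 (55) they were 29 thinned, 124 with edgeR, 151 with DESeq2, 0 without the third libraries and 4 to 169 with each left out.

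With the replicate number as a block, 30 genes were called at E2.5 and 438 at E3.75, and no member changed its call. No block was fitted at E4.5, where the 3 wild type columns share 1 name and carry no replicate numbers. Signs turned only for values near 0. Cdx2 at E2.5 was 0.010 with TMM factors, 0.0078 with DESeq2 size factors, 0.036 thinned, 0.011 with edgeR, 0.0081 with DESeq2 and -0.074 to 0.028 with each library left out. Cdx2 at E3.75 was 0.0058, 0.0029, 0.051, 0.0052 and 0.0026 in the same order, and -0.10 to 0.031. Gata3 at E3.75 was -0.056 thinned and -0.067 to 0.099 with each left out. Gata3 at E4.5 was -0.027 with TMM factors, -0.017 with DESeq2 size factors, -0.026 thinned, -0.052 with edgeR, -0.041 with DESeq2 and -0.089 to 0.17 with each left out. Ovol1 at E4.5 ranged from -0.39 to 0.10 with each left out, and the Hand1 difference of E4.5 minus E2.5 from -0.15 to 0.42, and was -0.13 with edgeR and -0.14 with DESeq2. The cause was not tested.

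The 4 calls kept their direction throughout, and Hand1 lost significance in 5 of 17 alternatives, Ovol1 in 5 of 17, Tead4 in 5 of 17 and Cdx1 in 4 of 15, since DESeq2 gave Cdx1 no adjusted p and it is not in all 3 tables. Cdx1 was listed at E3.75 through its wild type libraries alone, so its kept direction is no support. The Hand1 stage difference was lost in 11 of 27, with adjusted p from 0.00941 to 0.382, and its E4.5 minus E3.75 difference passed in 7 of 28. Ovol1 at E4.5 minus E2.5 passed with thinned reads alone (adjusted p = 0.0437). Depth limits precision for low genes: Hand1 and Cdx1 at E3.75 rest on 20 reads or fewer per library.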

Other observations

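Chosen after their values were seen, 2 genes outside the naming rule had log2 fold changes near those of Hand1 and Ovol1 at E2.5. The lists they were picked from had medians there of 0.43 over 4 measured paralogs and 0.07 over 14 measured trophoblast regulators. Gata1, a GATA factor known in blood cells, had every null library above every wild type library at each stage, with means of 49.0, 17.2 and 19.9 CPM in null and 22.6, 7.39 and 12.5 CPM in wild type embryos in stage order. Its log2 fold changes of 1.08, 1.37 and 0.64 did not pass in limma (adjusted p = 0.0666, 0.0914 and 0.354). Over all genes the null libraries were all above for 13.6%, 11.4% and 12.2% in stage order. At E3.75 Gata1 reached 10 CPM in 3 null libraries and in 1 wild type library, so it was listed through its null libraries and its difference there is no support for a direction. Eomes, a T-box factor that the mouse trophectoderm needs, had 71.3 ± 8.5 CPM in null and 39.5 ± 10.9 CPM in wild type embryos at E2.5 (SD, n = 3 each), a log2 fold change of 0.86 that did not pass (adjusted p = 0.0843, limma). At E3.75 and E4.5 its groups overlapped, with means of 174 and 178 CPM in null and 162 and 205 CPM in wild type embryos.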
